A study of Rattus norvegicus with 9 samples.

Results

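Rat chondrocytes kept for 24 hours in rat plasma with thrombin and an inhibitor (the RPTi group) were compared with the same kind of cells in rat plasma alone (the RP group). Both groups consist of 3 libraries, so 6 of the 9 libraries of the series enter the comparison, and every gene of the count table was considered. The cells were primary cartilage chondrocytes of SD rats, grown in DMEM with 10% FBS and used at passage 1 or 2. The remaining 3 libraries (the RPT group) had plasma and thrombin without the inhibitor, and their values are set beside those of RPTi where they help to place a gene. The labels do not name the inhibitor, and no group had plasma and inhibitor without thrombin, so what thrombin did and what the inhibitor did within RPTi cannot be told apart here. Nothing in the labels tells if the 3 libraries within a group represent different animals or cultures. The p-values therefore measure only the spread between these libraries, which may be technical.

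Thrombin is the serine protease that ends the clotting cascade, and on cells it cleaves protease-activated receptors, which couple to G proteins. A well-known branch downstream runs through RAS, RAF and MEK to the ERK kinases, which switch on immediate early genes, ETS transcription factors and, as a brake on the same route, dual-specificity phosphatases and Sprouty proteins. Chondrocytes are the cells of cartilage. They build a matrix of type II collagen and aggrecan, and in inflamed joints they produce proteases and cytokines that break it down. The title of the series names the MEK and ERK route and Stat3, which is why the genes of those routes are described first.

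In total 13856 of 18924 genes had enough counts to be tested. With thrombin and inhibitor 1647 genes (11.9% of those tested) rose and 1705 (12.3%) fell against plasma alone at an adjusted p below 0.05, which is 24.2% in either direction. Most of these differences were small: the median size among called genes was 0.44 on the log2 scale, and 58.1% of them were under 0.5. Changes of at least 1 log2 were called in 244 genes that rose (1.76%) and 284 that fell (2.05%). The 3 RPTi values lay wholly above the 3 RP values in 21.7% of tested genes and wholly below them in 22.2%. Counts of list members that rose or fell, given further on, are to be read against 11.9% and 12.3%. Those of at least 1 log2 are to be read against 1.76% and 2.05%, and statements that groups do not overlap against 21.7% and 22.2%. Scaling by library totals in place of the trimmed mean moved the median of all genes from -0.01 to -0.06 and the split to 1318 higher and 2280 lower, so that 36.6% of called genes were higher in place of 49.1%. These are bulk libraries, in which fewer cells of a type and less RNA per cell cannot be told apart.

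**Figure D1:**
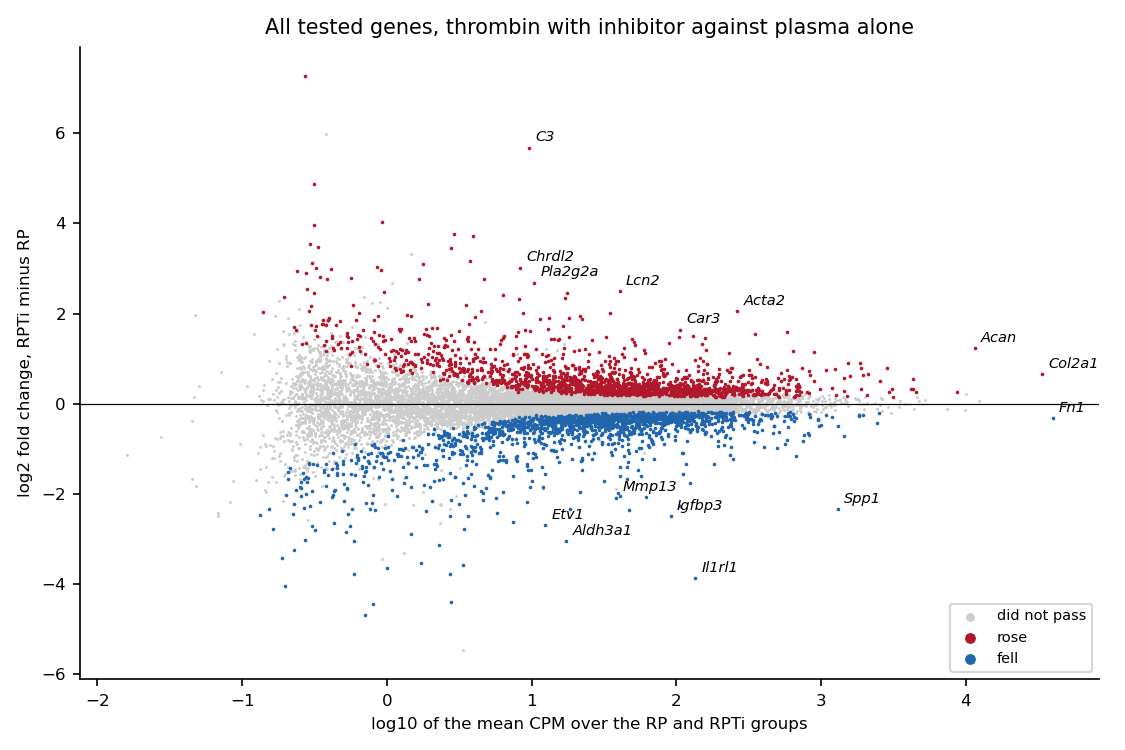
Each dot is 1 tested gene, with the log10 of its mean CPM (counts scaled to the size of the library) over the RP and RPTi groups on the horizontal axis and its log2 fold change, RPTi minus RP, on the vertical axis. Red and blue dots are genes that rose or fell at an adjusted p below 0.05. C3 and Il1rl1 stand farthest out among the genes labelled, and Acan and Col2a1 are high at the right edge.

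The 6 RP and RPTi libraries held between 31914905 and 43962783 counts. Within each of these groups log2 CPM values correlated at 0.989 to 0.991, and by this measure no library stood apart from its group. By chi-square per degree of freedom of the counts, RP3 differed more: 15.8 and 21.1 against RP1 and RP2, and 6.98 between RP1 and RP2. For RPTi2 it was 9.07 and 12.1 against RPTi1 and RPTi3, and 5.24 between RPTi1 and RPTi3. The 20 most abundant genes took 17.4% ± 0.107 (SD, n = 3) of counts in RP and 19.0% ± 0.142 in RPTi, and mitochondrially encoded genes took 3.03% ± 0.227 and 2.88% ± 0.189 (two-sided exact permutation p = 0.1, the smallest that 3 against 3 allows, and 0.6). Cartilage collagen and aggrecan were abundant, as the chondrocyte label has it, and Col2a1 took 2.63% ± 0.0836 of counts in RP and 4.002% ± 0.129 in RPTi. Fibroblast-type matrix genes were abundant too: Fn1, fibronectin, took 4.47% and 3.46%, and the mean FPKM in RP was 2083 for Col1a1, the fibril collagen of fibroblasts and bone, against 5788 for Col2a1 and 1006 for Acan.

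The receptors for thrombin were expressed at unequal levels. In RP libraries the mean FPKM, a level adjusted for transcript length, was 16.4 for F2r, the main thrombin receptor PAR1, 2.50 for F2rl1 (PAR2, which trypsin-like proteases cleave) and 0.329 for F2rl2 (PAR3). F2rl3 (PAR4) had 9 counts over the 3 RP libraries and 6 over the RPTi libraries and was not tested. F2r was measured at 58.1, 55.2 and 53.5 CPM in RP and 61.99, 71.4 and 64.7 in RPTi, groups that did not overlap, and rose by 0.25 ± 0.08 (SE) on the log2 scale (edgeR adjusted p = 0.0316). That small rise was lost under 6 of the alternatives tried, among them leaving out any RP library, RPTi2 or RPTi3, with adjusted p-values up to 0.137. F2rl1 stood at 7.19, 7.80 and 7.13 CPM in RP, 5.15, 6.43 and 5.81 in RPTi and 15.9, 14.8 and 12.3 in RPT. Its RPTi difference of -0.35 ± 0.12 did not pass the test (edgeR adjusted p = 0.0574). F2rl1 was called lower under 4 of the alternatives tried. They were those without RPT3, with the RP and RPTi libraries only, with library totals and with the replicate number as a block. The RPT libraries enter this comparison only through the shared fit. Of the 15 tested receptors, G proteins and their regulators, the other called members were Thbd, the thrombin-binding protein thrombomodulin, which rose by 0.40, and Gnaq, the alpha subunit of Gq, which fell by 0.44. Thbd was no longer called without RPTi1 or RPTi3, and the list's rises numbered 0 without RPTi3, 1 without RP1, RP2, RPTi1 or RPTi2 and 4 without RPT3, its falls 3 without RPT3 and 2 without RP2, RPT2, RPTi2 or RPTi3.

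The genes of the ERK route itself differed little between the groups. Among 21 tested members of the RAS, RAF, MEK and ERK cascade 1 rose and 5 fell, all by less than 0.6 log2: Nf1 and Rasa1, which switch RAS off, the adaptor Shc1, Nras and the exchange factor Sos1. The number that fell was 3 without RP1 or RP3 and 2 without RPTi2, and 2 members rose without RP2, RP3, RPT2, RPT3, RPTi2 or RPTi3. Sos1 was no longer called without RPT1 or any RP or RPTi library, Nras without RP1, RP3, RPTi2 or RPTi3, and Rasa1 without RP3 or RPTi2. Map2k1 (MEK1) was at 69.3, 66.5 and 70.8 CPM in RP and 62.7, 59.4 and 64.6 in RPTi, and Map2k2 (MEK2) at 85.5, 88.5 and 73.2 and 96.2, 102 and 93.8. Neither passed the test (edgeR adjusted p = 0.191 and 0.137). Mapk3, which encodes ERK1, was at 183, 198 and 176 CPM in RP and 171, 184 and 160.4 in RPTi, a difference of -0.11 ± 0.08 (edgeR adjusted p = 0.308). Map2k2 would be called without RPT2. These are transcript levels, and phosphorylation was not measured.

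Genes that ERK signalling is known to induce as its own brake changed far more. Of 14 tested feedback inhibitors 10 fell and 2 rose, with a median of -0.69 against -0.01 for all tested genes. Dusp6, the phosphatase specific for ERK, was at 15.2, 16.7 and 14.3 CPM in RP and at 3.92, 5.04 and 3.85 in RPTi. Every RPTi library was below every RP library, and the fall was 1.85 ± 0.12 on the log2 scale, or 3.61-fold (edgeR adjusted p = 3.2e-07). The RPT libraries, at 31.7, 27.5 and 31.9 CPM, lay above both groups. Spry4 and Spry2, which block RAS activation downstream of growth factor receptors, fell by 1.75 ± 0.19 and 1.23 ± 0.12. Spry2 went from 27.7, 27.8 and 24.01 CPM in RP to 10.9, 13.3 and 9.85 in RPTi and was 51.5, 51.1 and 60.6 in RPT. Dusp5, the nuclear ERK phosphatase, fell by 1.27 ± 0.10, from 8.91, 7.92 and 8.06 CPM to 3.39, 3.65 and 3.32. Its RPT values were 22.4, 19.5 and 22.7 CPM. Spred2, Spred1, Spred3, Errfi1, Dusp4 and Dusp7 fell by 0.28 to 0.97. The call was lost for Dusp4 without RPTi2 and for Dusp7 without RPTi1.

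The 2 members that rose are phosphatases that also act on the stress kinases JNK and p38. Dusp8 was at 9.79, 10.3 and 8.66 CPM in RP and 35.6, 34.2 and 35.4 in RPTi, a rise of 1.87 ± 0.10 with no overlap (edgeR adjusted p = 5.77e-08), while RPT libraries held 14.3, 12.4 and 11.6 CPM. Dusp1 rose by 0.70 ± 0.07, from 36.1, 36.2 and 36.9 CPM to 58.6, 62.2 and 56.2. Spry1 (0.04) and Dusp2 (0.23) did not pass the test.

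The Dusp5 promoter is shown because it holds a pair of CArG boxes, the site of serum response factor (SRF), which works with ERK-activated ETS partners. The window ends at the base before the transcription start in the RefSeq annotation of GRCr8 (chr1:262543624-262543773, plus strand), and the boxes are in capitals, starting 82 and 72 bases before the start.
Dusp5: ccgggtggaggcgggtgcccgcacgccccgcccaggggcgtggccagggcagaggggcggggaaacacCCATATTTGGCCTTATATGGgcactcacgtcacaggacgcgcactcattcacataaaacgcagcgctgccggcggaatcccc
A CArG box was found within 250 bases before the start in 1.5% of all 33469 RefSeq promoters searched, in 1 of the 9 fallen feedback inhibitors that matched a promoter (Dusp5) and in 3 of the 12 fallen ERK-responsive genes that matched (Egr1, Egr2 and Etv1). Both strands were searched. A match describes the letters and does not show that a factor binds there.

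**Figure D2:**
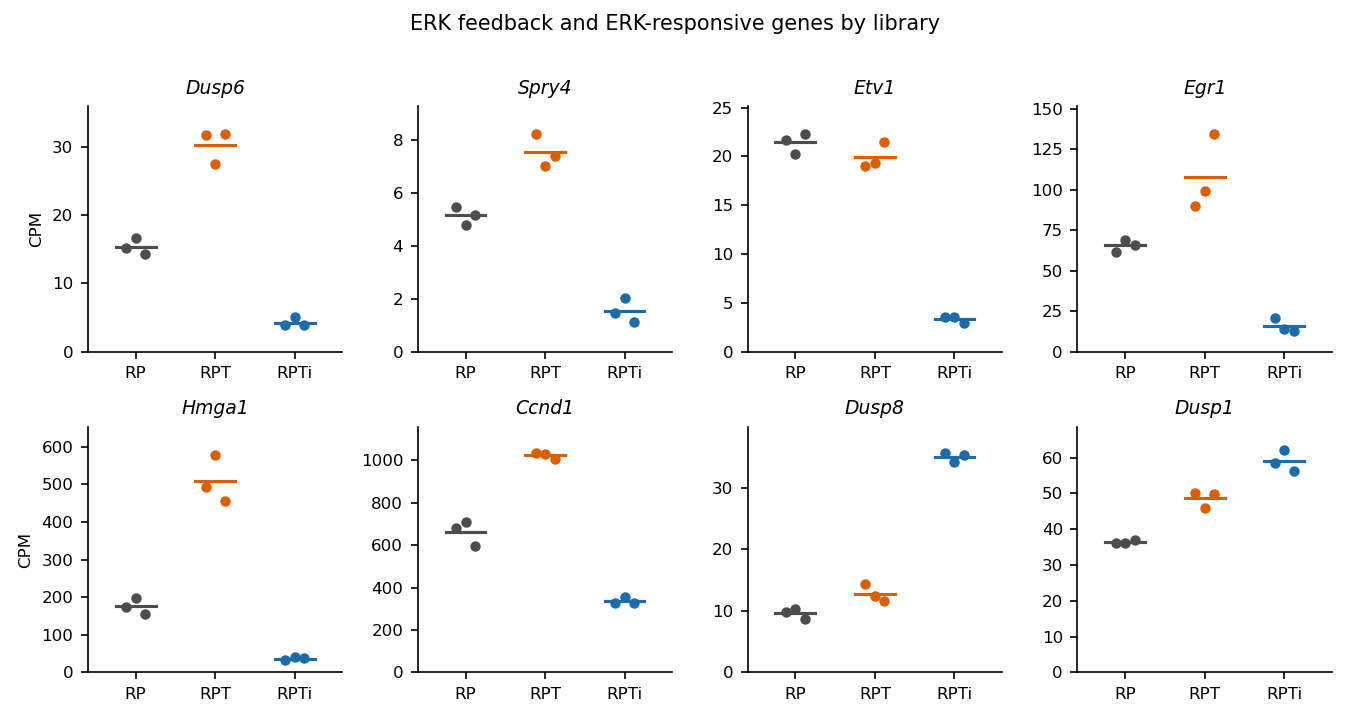
Each dot is the CPM of 1 library, with the mean as a bar, in plasma alone (RP), plasma and thrombin (RPT) and plasma, thrombin and inhibitor (RPTi). Dusp6, Spry4, Etv1, Egr1, Hmga1 and Ccnd1 are lower in every RPTi library than in any RP library, and Dusp8 and Dusp1 are higher.

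The transcription factors and growth factor genes that ERK induces showed the same kind of fall, with exceptions. Of 35 tested ERK-responsive genes 17 fell, 13 of them by at least 1 log2, and 8 rose by less than 1 log2. The median was -0.53. The PEA3 family of ETS factors is among the best known ERK outputs: Etv1 went from 21.7, 20.3 and 22.3 CPM in RP to 3.51, 3.52 and 2.90 in RPTi, a 6.48-fold fall (-2.70 ± 0.10 on the log2 scale, edgeR adjusted p = 6.59e-09). The RPT libraries, at 18.98, 19.3 and 21.4 CPM, differed from RP by -0.11, which did not pass the test. Etv4 and Etv5 fell by 2.03 ± 0.20 and 1.29 ± 0.08, and here RPT was above RP, by 1.01 and 0.52. Egr1, the zinc finger factor induced within minutes of ERK activation, was at 61.6, 69.2 and 66.1 CPM in RP and 20.6, 14.2 and 13.04 in RPTi. Arc and Egr2, further immediate early genes, fell by 2.49 and 1.32, the latter not called without RP1.

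Hmga1, a chromatin protein of proliferating cells, fell from 175, 197 and 157 CPM to 31.7, 40.1 and 38.5 (-2.26 ± 0.11, edgeR adjusted p = 5.71e-08). It was at 492, 578 and 456 CPM in RPT, so the 3 groups were fully separated. Its relative Hmga2 fell by 1.55. Fosl1, the AP-1 subunit FRA1, fell by 1.84 ± 0.11, to 5.15, 6.30 and 4.27 CPM from 20.1, 17.96 and 18.04. Ereg and Areg, ligands of the EGF receptor, fell by 1.93 and 1.03. The genes that rose were Jund, Nr4a3, Nr4a1, Fosl2, Hbegf, Lif, Plaur and Ier3, by 0.32 to 0.93; Ier3 was not called without RP1, RP3, RPTi1 or RPTi2, nor Plaur without RPTi2. Hbegf, a further EGF receptor ligand, differed widely between the thrombin groups: 37.5, 38.3 and 35.3 CPM in RP, 47.2, 47.8 and 44.6 in RPTi and 100.1, 96.5 and 112 in RPT. Fos (0.75), Jun (-0.15), Junb (0.08) and Myc (0.17) did not pass the test, although Fos did without RPT1 or RPT3 and Myc without RPT3.

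Stat3 transcript levels were 269.96, 269 and 264 CPM in RP and 248, 254 and 261 in RPTi, and the difference of -0.07 ± 0.05 did not pass the test (edgeR adjusted p = 0.33). In the family of STAT3 and IL-6 signalling genes 4 of 24 rose and 4 fell, and either count dropped to 1 or 2 when single libraries were left out: 1 rose without RP1 or RPTi3 and 2 without RP2 or RP3, and 1 fell without RP1, RP2 or RPTi1 and 2 without RPTi2 or RPTi3. Jak1, a kinase that phosphorylates STAT3, fell by 0.69 ± 0.08, from 268, 253 and 289.7 CPM to 164, 161 and 179. Lif and Pim1 were among the 4 that rose, by 0.54 ± 0.13 and 0.52 ± 0.13, Pim1 not without RP1 or RPTi3. Il6 was scarce, at 0.204, 0.0596 and 0.106 CPM in RP, 0.501, 0.161 and 0.307 in RPTi and 0.758, 0.712 and 0.823 in RPT. Its RPTi difference of 1.33 ± 0.52 did not pass (edgeR adjusted p = 0.0834), though it was called without RPTi2. Socs3, a target of STAT3 (-0.14), Il6st, the shared receptor chain gp130 (0.06), and Osmr (-0.20) did not pass either.

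Cell cycle genes fell in part. Ccnd1, the D-type cyclin that ERK induces to drive G1, went from 682, 709 and 597 CPM in RP to 328, 355 and 328 in RPTi, a 1.97-fold fall (-0.97 ± 0.07, edgeR adjusted p = 5.64e-07), and RPT libraries held 1038, 1033 and 1006. The CDK inhibitors Cdkn1c (p57) and Cdkn2b (p15) fell with it, by 1.14 and 0.94, and Cdkn1a (p21) rose by 0.45. Of 24 G1 cyclins and CDK inhibitors 7 fell and 1 rose (2 without RPT3 or RPTi2). Of 39 DNA replication genes 7 fell by less than 0.5, Mcm4 (-0.47) and Tyms (-0.41) among them, 1 rose (Cdc45, 0.37) and the median was -0.06; scaling by library totals would call 11 of them lower. Of 35 mitosis genes 12 fell and none rose, with a median of -0.23. Anln, needed for cytokinesis (-0.44), and Mad2l1 of the spindle checkpoint (-0.44) showed the larger falls. That count was 6 without RPTi1 and 19 under library totals. Mki67 (-0.26) and Top2a (-0.27) did not pass, but Top2a was called lower under 11 of the 16 alternatives. Among these were the fits without RP2, RPTi3 or any RPT library, with the RP and RPTi libraries only and with DESeq2.

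The cartilage matrix rose. All 7 tested cartilage collagens were higher in RPTi and 6 passed the test, with a median of 0.63. Col2a1, the main fibril collagen of cartilage, was at 26188, 27012 and 24991 CPM in RP and 42356, 39757 and 41478 in RPTi (0.66 ± 0.05, 1.58-fold, edgeR adjusted p = 2.69e-06). The RPT libraries held 16171, 17359 and 15064 CPM, so RP lay between the thrombin groups without overlap. Col9a2, Col9a3 and Col9a1 of type IX collagen rose by 0.90, 0.63 and 0.51, Col11a2 by 0.79 and Col27a1 by 0.45. Col11a1 (0.22 ± 0.08) did not pass (edgeR adjusted p = 0.0607), and it was called in fits without RP3, RPT2, RPT3 or RPTi2.

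Acan, the core protein of aggrecan, changed more than the collagens: 7234, 7128 and 6421 CPM in RP against 16940.1, 15747 and 16093 in RPTi, a rise of 1.23 ± 0.06 or 2.35-fold (edgeR adjusted p = 5.71e-08). RPT libraries were at 5210.2, 5426 and 4706 CPM. Of 25 tested proteoglycans and non-collagenous matrix genes of cartilage 15 rose and 3 fell, with a median of 0.47. Comp, which bridges collagen fibrils, rose from 1361, 1445 and 1319 CPM to 2448, 2364 and 2383. Hapln1, the link protein that locks aggrecan onto hyaluronan, went from 1124, 1171 and 1467 CPM to 2003, 1627 and 2115. Cnmd (chondromodulin, an inhibitor of vessel growth) and Ucma rose by 0.99 and 0.75, and in RPT these were at 127, 127 and 134 and 197, 199.9 and 194 CPM. Matn3, Matn1 and Matn4, the matrilins, rose by 0.60, 0.36 and 0.32. The members that fell were Cytl1 (-0.70), Chad (-0.59) and Scrg1 (-0.38), and without RPTi2 the falls numbered 1. Chad was also not called without RP1, RP2 or RPTi3.

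Prg4 rose in RPTi as well, but its RPT libraries lay far above both other groups. It encodes lubricin, the boundary lubricant of the joint surface, and stood at 17.7, 15.6 and 18.2 CPM in RP, 48.9, 46.8 and 49.4 in RPTi and 261, 228 and 231 in RPT. RPTi was thus 2.81-fold above RP (edgeR adjusted p = 6.2e-08) and still well below RPT. Cilp2 was at 25.8, 29.9 and 24.3 CPM in RP and 72.1, 73.4 and 71.4 in RPTi, with RPT at 33.7, 37.2 and 30.1. Among 10 small leucine-rich proteoglycans Fmod, fibromodulin, rose by 0.92 ± 0.06 and Chadl by 0.88, Lum, lumican, fell by 0.55, and the most abundant, Bgn (0.10) and Dcn (-0.04), did not pass.

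**Figure D3:**
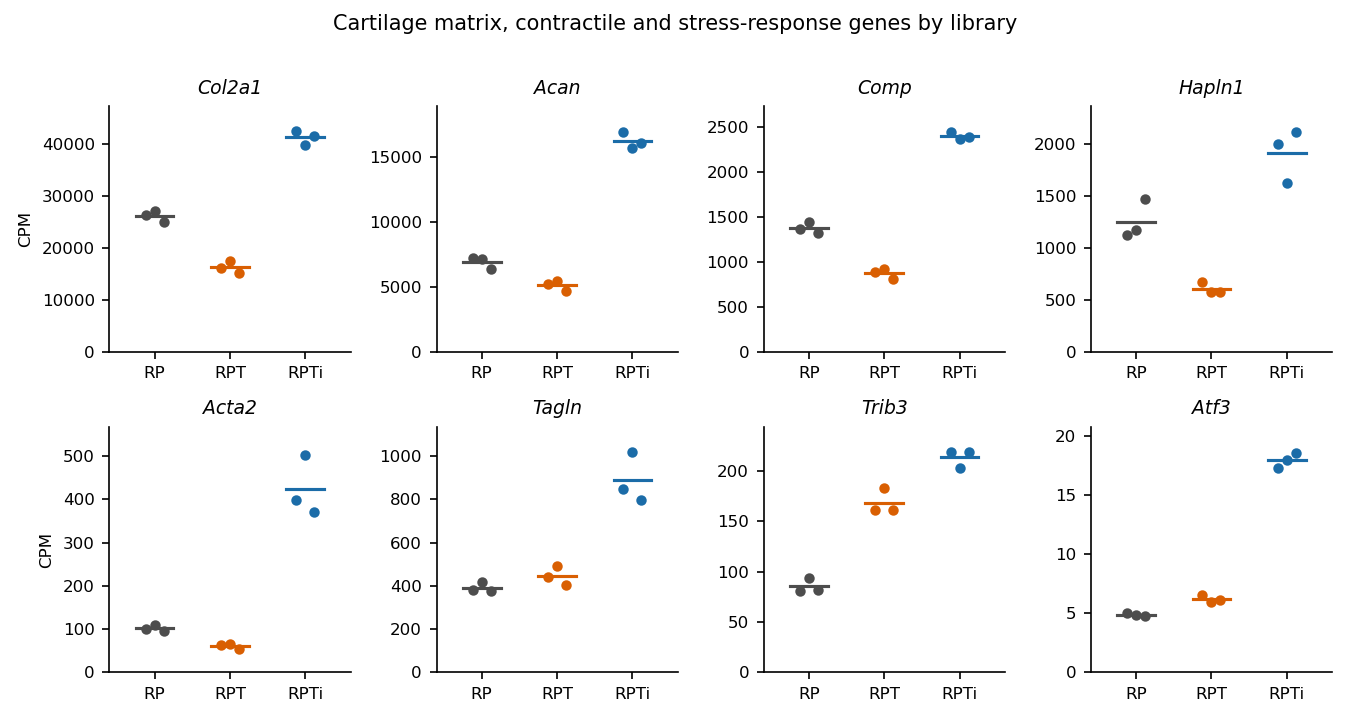
Each dot is the CPM of 1 library, with the mean as a bar, for 8 genes in RP, RPT and RPTi. Col2a1, Acan, Comp and Hapln1 are highest in RPTi, intermediate in RP and lowest in RPT, whereas Trib3 and Atf3 are lowest in RP. Acta2 and Tagln are highest in RPTi.

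The enzymes that assemble this matrix rose as well, by smaller amounts. Of 23 genes for collagen folding and secretion 15 rose and none fell, or 1 without RP2, RPT2 or RPT3 (median 0.29), led by P4ha2, a prolyl hydroxylase (0.70 ± 0.06), and Serpinh1, the collagen chaperone HSP47 (0.56 ± 0.05). Serpinh1 went from 3580.4, 3636 and 3363 CPM to 5259, 5209.6 and 5116. Of 36 genes for hyaluronan and glycosaminoglycan synthesis 13 rose and 2 fell (4 without RPT3). The risers include Xylt1, which starts chondroitin sulphate chains (0.80), Chsy1, which extends them (0.59), and Papss2, which supplies the sulphate donor (0.82). Cd44, the hyaluronan receptor, fell by 0.64 ± 0.08, from 193, 186 and 197 CPM to 115, 136 and 117, and was 391, 374 and 432 in RPT. Of the hyaluronan synthases, Has1, Has2 and Has3 did not pass (0.07, -0.26 and 0.25), Has2 being called without RP2.

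The transcription factors that govern these genes showed no shared direction. Sox9, the master regulator of chondrocytes, was at 154, 145 and 134 CPM in RP and 122, 138 and 141 in RPTi, overlapping groups with a difference of -0.11 ± 0.09 (edgeR adjusted p = 0.429). RPT libraries held 93.3, 99.5 and 77.1 CPM. Its partners Sox5 (-0.27) and Sox6 (0.20) did not pass (Sox5 did without RPT2, Sox6 without RPT3), and Sox8 rose by 0.82 ± 0.09. Of 23 such factors 4 rose and 5 fell (2 rose without RP1). Runx2, which drives hypertrophy, fell by 0.56 ± 0.11, from 18.8, 16.7 and 20.2 CPM to 13.3, 11.4 and 13.1.

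Markers of hypertrophy and mineralization split in both directions: 8 of 20 rose and 6 fell, with a median of -0.04. Spp1, osteopontin, had the steepest fall, from 2249, 2058 and 2269 CPM in RP to 422, 470.4 and 405 in RPTi (-2.34 ± 0.09, 5.07-fold, edgeR adjusted p = 1.06e-08), and was at 4936, 4563 and 5966 CPM in RPT. Ankh and Enpp1, which raise extracellular pyrophosphate and so hold back mineral, fell by 1.34 ± 0.06 and 0.71 ± 0.08. Alpl, the alkaline phosphatase that removes pyrophosphate, rose by 0.85 ± 0.10, from 13.1, 14.5 and 13.3 CPM to 24.4, 26.03 and 23.3, with RPT at 5.20, 6.50 and 4.85. Smpd3, a sphingomyelinase of mineralizing cartilage, rose from 26.6, 26.2 and 25.9 CPM to 66.4, 56.04 and 61.8. Ihh, the hedgehog ligand of prehypertrophic chondrocytes, and Panx3 rose by 1.34 and 1.67, both from about 1 CPM. Col10a1, the defining collagen of hypertrophic cells, did not pass (-0.43).

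Fibroblast-type matrix was mixed, with 14 of 33 genes higher and 9 lower. Fn1 fell by 0.32 ± 0.04, from 44832, 44894 and 43451 CPM to 35061, 36602 and 35233, and Col1a1 did not pass (0.06 ± 0.06). Col12a1 and Lox, the enzyme that cross-links collagen, rose by 0.75 and 0.77. Col8a1, Pdgfra and S100a4 fell by 1.33, 0.92 and 0.88; Pdgfra, a receptor of mesenchymal cells, went from 284, 269 and 291 CPM to 147, 149 and 148.

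Among the proteases, Mmp13, the collagenase that cuts type II collagen, fell the most. It was at 64.2, 54.9 and 67.4 CPM in RP and 14.00, 11.6 and 18.5 in RPTi (-2.08 ± 0.15, 4.23-fold, edgeR adjusted p = 1.15e-06) and at 96.6, 73.8 and 92.00 CPM in RPT. Mmp3, stromelysin, gave another pattern: 10.3, 9.20 and 8.74 CPM in RP, 12.4, 11.7 and 15.2 in RPTi and 200.02, 179.7 and 168 in RPT. RPTi exceeded RP by 0.48 ± 0.11 (edgeR adjusted p = 0.00837), a small gap beside the RPT minus RP value of 4.27. Of 20 metalloproteinases and their inhibitors 6 rose and 5 fell; the falls numbered 3 without RP1, RP2, RPTi2 or RPTi3. The inhibitors moved apart, Timp1 falling by 0.56 and Timp3 rising by 0.56, from 327, 331 and 359 CPM to 518, 462 and 517. Mmp14 (0.09) did not pass, nor did Mmp2 (0.15), which was called without RPT3.

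The Mmp13 promoter is shown because it holds TGACTCA, the AP-1 site to which FOS and JUN proteins, FRA1 included, are known to bind. The window is the 150 bases before the RefSeq start in GRCr8 (chr8:12782679-12782828, plus strand), with the site in capitals 66 bases before the start.
Mmp13: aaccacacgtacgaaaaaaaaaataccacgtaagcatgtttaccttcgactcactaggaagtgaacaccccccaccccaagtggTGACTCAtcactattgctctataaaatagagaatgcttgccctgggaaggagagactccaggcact
TGACTCA on either strand was found in 4.05% of all promoters within 250 bases before the start, and in 2 of the 5 fallen genes of the family, Mmp12 and Mmp13. Mmp12, a scarce transcript, kept its call only without RPTi1 among the left-out libraries.

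Members of the ADAM and ADAMTS families moved in both directions. Adamts14, a procollagen N-proteinase, went from 14.5, 14.7 and 12.4 CPM to 51.8, 61.8 and 53.4 (4.01-fold, 2.00 ± 0.12, edgeR adjusted p = 1.52e-07), while RPT was 8.34, 8.79 and 6.40. Adamts12 rose by 0.99 ± 0.07. Adamts5, the aggrecanase, rose by 0.60 ± 0.08, from 33.6, 33.6 and 35.9 CPM to 47.6, 54.6 and 53.5, whereas Adamts4 did not pass (0.12). Adam12 and Htra1, a serine protease of degenerating cartilage, fell by 0.74 and 0.52. Counted over 27 tested members, 9 rose and 7 fell. Cathepsins and lysosomal genes stayed near RP, 3 of 27 rising and 1 falling, each by at most 0.51, with Ctsk, cathepsin K, at 0.28. The rises numbered 1 without RP1, RP2, RPTi2 or RPTi3, when Ctsk was not called, and the falls 0 without RP1, RP3 or RPTi1.

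The plasminogen system also changed. Plau, urokinase, fell by 1.00 ± 0.10 and its receptor Plaur rose by 0.44 ± 0.11, a call lost without RPTi2. Serpine2, protease nexin, which inhibits thrombin itself, fell from 952, 956 and 939 CPM to 567, 607 and 577 and was 1556, 1543 and 1737 in RPT. F5, clotting factor V, fell by 1.40 ± 0.11. Of 19 tested genes of this group 5 rose and 5 fell, and 3 rose without RPTi2.

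Inflammatory mediators moved in both directions: of 26 tested 8 rose and 6 fell, with a median of 0.28 in RPTi minus RP and of 0.99 in RPT minus RP, which shares the RP libraries. C3, the central complement protein and counted with the complement genes, was close to 0 in RP, at 0.294, 0.447 and 0.370 CPM, and stood at 19.1, 15.5 and 21.9 in RPTi. That is a 51.3-fold rise, 5.68 ± 0.19 on the log2 scale (edgeR adjusted p = 2.23e-09). The RPT libraries were at 32.4, 27.2 and 27.4 CPM. Lcn2, the iron-scavenging lipocalin, was at 12.3, 13.1 and 11.5 CPM in RP, 64.6, 64.6 and 78.5 in RPTi and 214, 195 and 174 in RPT. Chi3l1, the cartilage glycoprotein YKL-40, followed the same order, at 5.74, 5.51 and 5.12, 31.1, 26.2 and 32.6 and 183, 148 and 128 CPM. For each of these the RPTi libraries lay wholly between the RP and the RPT libraries. Pla2g2a, the secreted phospholipase of inflamed joints, rose by 2.69 ± 0.14, and Slpi, an antiprotease, by 2.41 ± 0.11, from 1.92, 2.08 and 2.01 CPM to 10.4, 10.7 and 10.8, with 16.4, 13.3 and 14.4 in RPT.

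The chemokines Ccl2 and Cxcl1 were nearer to plasma alone. Ccl2, which draws monocytes, was at 6.22, 6.25 and 7.32 CPM in RP, 7.99, 7.07 and 6.20 in RPTi and 44.3, 33.2 and 46.3 in RPT. RP and RPTi overlapped and their difference of 0.10 ± 0.14 did not pass (edgeR adjusted p = 0.648). Cxcl1, a neutrophil chemokine, differed by 0.39 ± 0.16 and did not pass (edgeR adjusted p = 0.0921), with RPT at 27.7, 24.1 and 32.8 CPM against 4.70, 3.48 and 4.60 in RP. Some mediators fell below plasma alone. Il1rl1, the receptor ST2 for interleukin 33, had the largest fall of all genes named for their size, from 267, 239 and 253 CPM to 16.2, 19.8 and 16.3 (14.6-fold, -3.86 ± 0.12, edgeR adjusted p = 2.23e-09), while RPT was at 271, 259.8 and 346. Ptgs2, cyclooxygenase 2, fell by 0.73 ± 0.09 and was at 22.7, 24.1 and 27.8 CPM in RP, 15.7, 14.5 and 14.8 in RPTi and 50.7, 48.1 and 53.3 in RPT. Cxcl10 fell by 1.80 ± 0.23 at low levels.

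**Figure D4:**
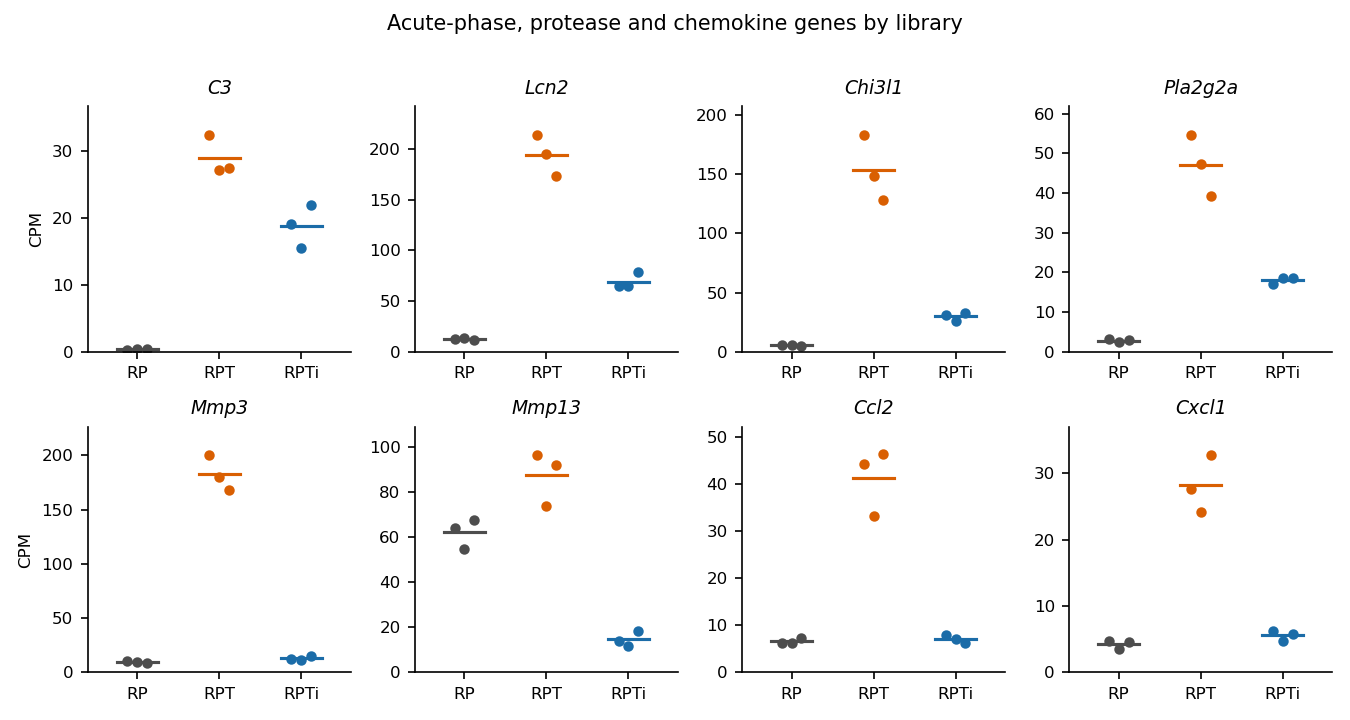
Each dot is the CPM of 1 library, with the mean as a bar, in RP, RPT and RPTi. C3, Lcn2, Chi3l1 and Pla2g2a lie between RP and RPT in the RPTi libraries, Mmp3, Ccl2 and Cxcl1 lie close to RP, and Mmp13 lies below RP.

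Complement genes other than C3 rose less: C1s by 1.42 ± 0.12, C1r by 0.71 ± 0.08, and the regulators Serping1 and Cd55 by 0.70 and 0.69 (Cd55 not without RP1, RP2, RPTi1 or RPTi3), so that 5 of 13 tested genes rose. The falls numbered 2, with Masp1 at -0.71. Of 24 NF-kB and innate signalling genes 5 rose and 5 fell. Icam1, an adhesion molecule, went from 117, 115 and 111 CPM to 209, 203 and 217, with RPT at 124, 121 and 112. Relb, an NF-kB subunit, and Sod2, the mitochondrial superoxide dismutase, rose by 0.94 and 0.43. Vcam1, Tlr3 and Tlr4 fell by 1.14, 1.04 and 0.77, and Nfkbia (0.17) and Tnfaip3 (-0.22), the feedback inhibitors, did not pass. Among interferon genes 4 of 24 were higher, RT1-A2 of the class I histocompatibility genes (0.80) among them, and 3 lower; none was lower without RP3 or RPTi3, and 1 without RP1, RPTi1 or RPTi2.

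Contractile genes rose in RPTi. Of 36 tested contractile and SRF target genes 21 rose, 8 of them by at least 1 log2, and 1 fell, with a median of 0.32 (RPT minus RP, 0.02). Acta2, smooth muscle actin, was at 100.3, 109 and 96.4 CPM in RP, 399.7, 504 and 370.1 in RPTi and 63.6, 66.1 and 55.04 in RPT, a 4.17-fold rise over RP (edgeR adjusted p = 6.26e-08). Tagln, transgelin, rose from 381, 418 and 378 CPM to 847, 1018 and 797, and Myl9, the regulatory myosin light chain, by 1.05 ± 0.09. Cnn1, calponin, Lmod1, leiomodin, and Casq2, a calcium store protein of muscle, rose by 1.44, 1.42 and 1.91. Acta1 and Actg2 rose by 3.11 ± 0.38 and 1.48 ± 0.12. The actin genes are near-identical in their coding sequence, so reads may be shared among them, and single members are uncertain. The member that fell was Actg1 (-0.31), a call lost without any RP library, RPT1, RPTi1 or RPTi3, and Actb, Vcl and Srf did not pass (-0.11, -0.10 and 0.11); without RPT3 the falls numbered 2. Skeletal muscle markers summed to 4.08 to 5.02 CPM in RP and 7.15 to 8.68 in RPTi, with Acta1 (3.03, 4.10 and 2.37 CPM in RPTi) and Myh3 higher, and Myod1 and Myh1 lower, at under 1 CPM; neither fall was called without RP1, RP3, RPT1, RPT2 or any RPTi library. Their part in the contractile rise was not tested.

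The Acta1 promoter is shown as the contractile member with a CArG box, in capitals 94 bases before the start (GRCr8, chr19:68784195-68784344, minus strand).
Acta1: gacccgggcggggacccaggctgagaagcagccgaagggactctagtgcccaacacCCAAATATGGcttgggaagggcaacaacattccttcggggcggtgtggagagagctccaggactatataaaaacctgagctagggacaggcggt
The box was found in 1 of the 14 risen members that matched a promoter, against 1.5% of all promoters, over the same 250 bases.

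Several TGF-beta genes rose beside the contractile ones, although the list was mixed: 9 of 27 rose and 7 fell, and 4 fell without RP1 or RPTi1. Tgfb3, a ligand, rose from 261, 264 and 273 CPM to 472, 529 and 469 and Tgfb2 by 0.48. Tgfbi and Pmepa1, known TGF-beta targets, rose by 0.54 and 0.76. Tgfbr3, the co-receptor betaglycan, fell from 88.3, 82.8 and 87.5 CPM to 26.2, 29.6 and 29.2 (-1.61 ± 0.08, edgeR adjusted p = 5.24e-08), with RPT at 85.3, 72.7 and 83.7. Fst, follistatin, which binds activin, fell by 1.46 ± 0.11. Smad3, Smad7 and Ccn2 (listed as Ctgf) stayed near RP, at 0.09, -0.03 and 0.12.

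In the BMP family 3 secreted antagonists rose. Chrdl2, a chordin-like antagonist, had the second largest rise among the genes named for their size, from 2.13, 1.70 and 1.66 CPM to 16.4, 12.95 and 15.4 (8.11-fold, 3.02 ± 0.18, edgeR adjusted p = 2.26e-07), and was 1.31, 0.712 and 1.13 in RPT. Nog, noggin, rose from 13.6, 12.4 and 13.05 CPM to 29.5, 30.9 and 28.6, and Chrd, chordin, by 0.81. The ligand Gdf5, known from joint formation, rose from 18.00, 18.3 and 17.9 CPM to 38.8, 39.1 and 42.6 and was 5.96, 6.41 and 4.79 in RPT. Id1, Id2, Id3 and Id4, the classic BMP targets, fell by 0.28, 0.30, 0.60 and 0.43, though Id1 was not called without RPTi3 and Id2 not without RP3, RPTi2 or RPTi3. Gdf10 fell by 1.47 ± 0.08 and was 32.4, 33.8 and 31.8 CPM in RP, 11.1, 12.3 and 12.1 in RPTi and 10.2, 10.1 and 10.6 in RPT. In total 10 of 32 members rose and 8 fell.

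Wnt genes leaned downward, with 14 of 34 lower and 6 higher (median -0.21). Wnt5a, a noncanonical ligand, fell by 0.80 ± 0.09, Fzd5, a receptor, by 1.19, and Lef1 and Tcf7, the nuclear effectors, by 0.31 and 0.55. Frzb and Sfrp2, secreted antagonists, and Wnt4 rose by 0.73, 1.18 and 1.50, and Axin2, the usual readout of the canonical route, did not pass (-0.20).

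Growth factor receptors split within families. Fgfr3, the FGF receptor that restrains growth plate chondrocytes, rose from 495, 515 and 489.8 CPM to 745, 787 and 746 (RPT, 231, 231 and 216), and Fgfr1 fell from 466, 491 and 459 CPM to 301, 323 and 319 (RPT, 452, 471 and 431). Of 16 FGF genes 4 rose and 5 fell (3 fell without RPTi1). Fgf21, a stress hormone, rose by 2.76 ± 0.31 from under 1 CPM. Egfr fell by 0.58 and Nrg1 by 1.24, among 5 of 15 EGF family genes that fell and 2 that rose (1 without RP1, RP2 or any RPTi library). The IGF carrier Igfbp3 fell 5.59-fold, from 162, 162 and 140.1 CPM to 25.9, 26.5 and 30.7 (-2.48 ± 0.08, edgeR adjusted p = 2.23e-09), while RPT libraries held 136, 143 and 144. Igfbp2 rose by 1.93 and Igfbp4 fell by 0.93. In that family 5 of 17 rose and 4 fell (3 rose without RP1 or RPTi1).

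Of 25 angiogenic genes 7 fell and 5 rose (3 without RPTi3). Esm1, endocan, fell from 5.59, 4.41 and 5.18 CPM to 0.473, 0.388 and 0.251 and was 11.1, 9.13 and 13.02 in RPT. Vegfc, Pdgfc and the co-receptor Nrp2 fell by 0.87, 1.22 and 0.71. Vegfa rose by 0.29, though not without RPTi3. Among 24 Notch and hedgehog genes 6 rose and 6 fell. Gas1, a hedgehog co-receptor, fell from 80.02, 80.4 and 82.04 CPM to 31.3, 35.7 and 37.05, with RPT at 35.8, 35.8 and 33.2, and Gli3 fell by 0.80.

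**Figure D5:**
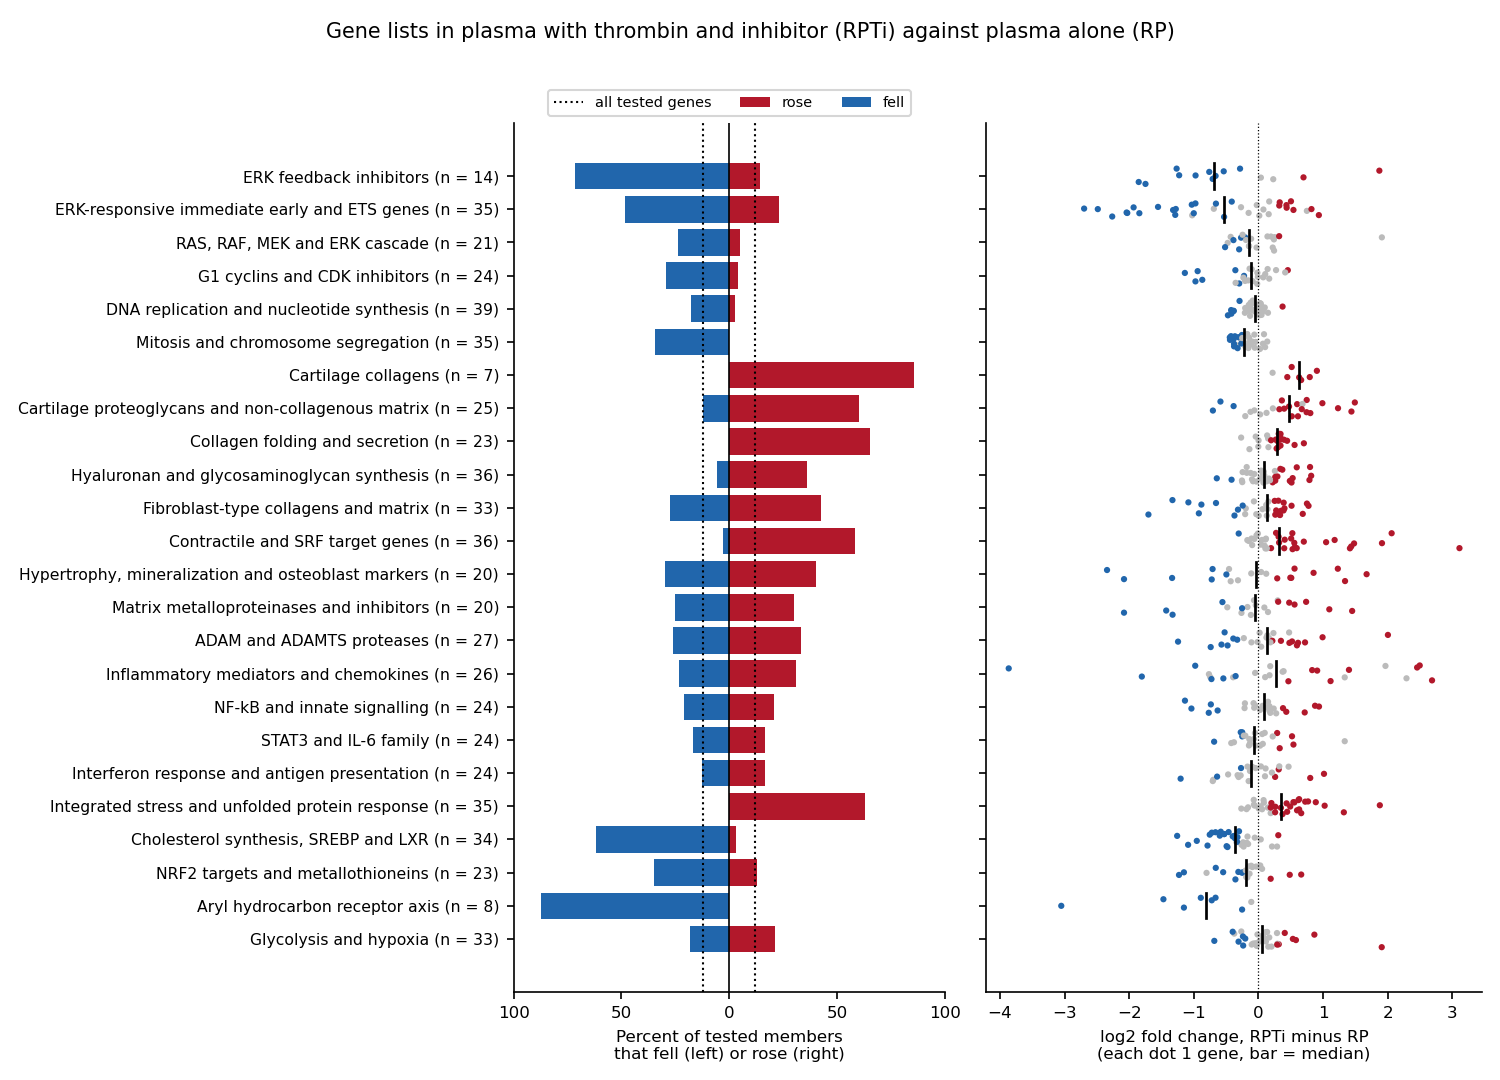
For 24 gene lists the left panel gives the percent of tested members that rose or fell, with dotted lines at 11.9% and 12.3%, the shares of all tested genes, and the right panel gives each member's log2 fold change, RPTi minus RP, with the median as a bar and grey for genes that did not pass. More than 50% of members fell in the ERK feedback, cholesterol and aryl hydrocarbon receptor lists, and more than 50% rose in the cartilage collagen, cartilage proteoglycan, collagen folding, contractile and stress-response lists.

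The integrated stress response stalls general translation and turns on ATF4 and its targets. Transcripts of its genes, listed with those of the unfolded protein response, rose with no member falling. Translation and protein levels were not measured. Of 35 tested members 22 rose, and the median was 0.35, beside 0.21 for RPT minus RP. Atf3 was at 5.02, 4.85 and 4.75 CPM in RP, 17.3, 17.99 and 18.5 in RPTi and 6.54, 5.97 and 6.16 in RPT (3.67-fold over RP, 1.88 ± 0.09, edgeR adjusted p = 4.59e-08). Trib3, a pseudokinase and ATF4 target, stood at 81.2, 93.8 and 81.6 CPM in RP, 219, 203 and 219 in RPTi and 161, 183 and 161 in RPT. Atf4 itself rose by 0.72 ± 0.06, Ddit3 (CHOP) by 0.62, Sesn2 by 0.89 and Ppp1r15a, which restarts translation, by 1.02 ± 0.07. The amino acid genes Slc7a5 and Asns rose by 0.63 and 0.44, and Chac1 by 0.77. The chaperones of the endoplasmic reticulum were nearly level: Hspa5 (BiP) was at 1194, 1123 and 1285 CPM in RP and 1212, 1164 and 1235 in RPTi, and Hsp90b1 and Pdia4 did not pass (-0.18 and -0.06).

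The promoters of Trib3 and Chac1 are shown because they hold TGATGNAA, the composite site of ATF4 with C/EBP proteins (N is any base). The site lies on the reverse strand in both, in capitals as printed, 21 bases before the start of Trib3 (GRCr8, chr3:161275534-161275683, minus strand) and 167 before that of Chac1 (chr3:126795931-126796130, plus strand).
Trib3: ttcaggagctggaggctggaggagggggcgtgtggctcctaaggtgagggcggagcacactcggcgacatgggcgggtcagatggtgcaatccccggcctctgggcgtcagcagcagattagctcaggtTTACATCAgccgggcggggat
Chac1: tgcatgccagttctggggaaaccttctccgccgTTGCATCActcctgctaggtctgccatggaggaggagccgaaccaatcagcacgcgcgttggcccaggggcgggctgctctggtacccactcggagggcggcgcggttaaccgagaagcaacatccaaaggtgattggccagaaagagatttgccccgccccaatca
On either strand TGATGNAA was found in 3.4% of all promoters within 250 bases before the start and in 3 of the 20 risen members that matched a promoter, Herpud1 being the other.

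Cholesterol synthesis genes fell widely, with 21 of 34 genes lower and Srebf1 alone higher (0.31), and a median of -0.37. Srebf1 was no longer called without RP1, RPTi1 or RPTi3, and without RPT3 the rises numbered 2. Hmgcs1, which commits acetyl units to the pathway, went from 320.4, 281 and 347 CPM to 155, 178 and 156 (-0.95 ± 0.09, edgeR adjusted p = 9.08e-06), with RPT at 216, 201 and 241. Msmo1, Idi1 and Sqle, later enzymes of the route, fell by 0.66, 0.79 and 0.58, and Insig1, which retains the sterol sensor in the endoplasmic reticulum, by 0.72.

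Xenobiotic genes fell too. Of 8 tested genes of the aryl hydrocarbon receptor 7 fell. Aldh3a1, an aldehyde dehydrogenase, dropped from 31.3, 32.7 and 28.98 CPM to 3.51, 3.78 and 3.94 (8.28-fold, -3.05 ± 0.10, edgeR adjusted p = 2.23e-09), and RPT was intermediate at 9.91, 11.6 and 9.88. Cyp1a1, the receptor's standard target, was at 13.8, 14.5 and 13.05 CPM in RP, 5.23, 4.46 and 5.22 in RPTi and 5.52, 5.82 and 5.49 in RPT, with RPTi and RPT close together. The receptor Ahr fell by 0.89 ± 0.10 and its repressor Ahrr by 0.72 ± 0.07. Of 23 NRF2 targets and metallothioneins 8 fell and 3 rose (5 fell without RP3 or RPTi2). Nqo1, a quinone reductase induced through either the aryl hydrocarbon receptor or NRF2, went from 944, 978 and 881 CPM to 415, 457 and 388, and Gstp1 fell by 1.23 ± 0.12. Metabolic genes of glycolysis and hypoxia were mixed, 7 of 33 rising and 6 falling (3 without RPTi1, RPTi2 or RPTi3). Car12, a carbonic anhydrase, rose from 7.87, 6.999 and 8.06 CPM to 27.5, 27.6 and 30.96, while Pfkp, a phosphofructokinase, fell by 0.68 and Ldha did not pass (0.09).

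Some genes were picked because they were called in RPTi against RP while RPT (plasma and thrombin) lay within 0.1 log2 of RP. Among those named for size, Fam25a was at 89.2, 89.5 and 59.7 CPM in RP, 12.6, 20.4 and 13.8 in RPTi and 76.1, 88.8 and 85.9 in RPT. Klhdc8a fell from 15.1, 16.02 and 14.8 CPM to 3.59, 3.78 and 2.76, with RPT at 16.2, 17.4 and 15.1. Cadm1, a cell adhesion molecule, and Slc39a10, a zinc importer, fell by 1.24 ± 0.09 and 1.20 ± 0.10. In the other direction, Car3, a muscle-type carbonic anhydrase, went from 52.5, 47.4 and 54.1 CPM to 155, 169 and 158, while RPT held 52.6, 46.2 and 55.99 (0.01 against RP). Nrip2 and Krt13 rose by 1.24 ± 0.13 and 1.33 ± 0.16.

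Of the remaining largest rises, Wfdc1, an antiprotease-like secreted protein, went from 5.83, 5.72 and 5.20 CPM to 28.9, 31.4 and 25.4 with RPT at 2.30, 2.26 and 1.65, and Cntn2, an adhesion protein of neurons, from 8.25, 9.59 and 9.27 to 36.4, 29.3 and 37.9 with RPT at 2.46, 3.003 and 2.35. Tgm2, tissue transglutaminase, which cross-links matrix, rose 4.02-fold. In these 3 genes the RPT libraries lay below RP. Among the largest falls, Ndst3, a heparan sulphate enzyme, fell 6.14-fold, Spns2, the sphingosine phosphate exporter, 5.33-fold, Akr1b8, an aldo-keto reductase, 5.06-fold and Ubash3b, a phosphatase, 4.24-fold. Efemp1, fibulin 3, fell by 1.70 ± 0.16 and was 14.5, 14.5 and 17.04 CPM in RP, 4.95, 3.62 and 5.53 in RPTi and 2.95, 2.45 and 3.45 in RPT.

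The macrophage list summed to 24.1 to 28.4 CPM in RP and 25.3 to 29.3 in RPTi, mostly from Cd14 (21.5, 23.2 and 19.3 and 22.1, 25.7 and 24.96 CPM), and none of its 4 tested members passed; Ptprc had 6 counts in each group, and Adgre1 had 6 in RP and 0 in RPTi. Cd68 (-0.45) would be called without RPTi2. The endothelial list summed to 3.1 to 3.91 CPM in RP and 2.1 to 2.45 in RPTi; Flt1, at 2.24, 1.79 and 1.95 CPM in RP and 0.807, 0.807 and 0.782 in RPTi, fell by 1.32, and Cdh5 had 0 counts in both groups. Blood and lymphoid markers summed to under 1 CPM. Adipocyte markers summed to 27.1 to 33.3 and 28.8 to 31.6 CPM, with 2 of 7 rising and 2 falling, although the rises numbered 0 without RP3, RPTi1 or RPTi3 and 1 without RP1, RP2 or RPTi2, and the falls 1 whichever library was left out. Tendon and synovial fibroblast markers, at 936 to 1018 CPM and 799 to 862, had 5 of 11 higher (Prg4 among them), Scx and Thbs4 by 0.60 and 0.53, and 4 lower, Thy1 by 0.50 ± 0.07. Neural markers summed to 516 to 526 and 599 to 629 CPM, mostly S100b, which chondrocytes also express (0.31). What part other cells had in any result was not tested.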

How the data were processed

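The data are poly-A RNA libraries of rat chondrocytes (NEBNext Ultra kit, paired-end), 3 in each of 3 groups. The authors deposited whole-number read counts per gene and, beside them, FPKM values, in 1 table of 18924 genes with Ensembl identifiers and symbols. HISAT2, DESeq2 1.26.0, HTSeq 0.11.2 and the Rnor_6.0 build are named, without roles, per the submitters' processing notes. How strand was set was not stated in the labels or notes, so reads of overlapping or antisense genes cannot be told apart. The deposited FPKM were used only to compare levels between genes.

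Counts were fitted for all 9 libraries with edgeR 4.0.16 (R 4.3.3) using TMM scaling, filterByExpr (minimum count 10) and the quasi-likelihood test of RPTi minus RP. P-values were adjusted by Benjamini-Hochberg over 13856 genes; an adjusted p below 0.05 is a call. The filter removed 0.0259% of counts. CPM are scaled by TMM. Fold changes are edgeR estimates with SE. The method was tested on simulated data. Precision beyond 3 libraries a group is limited by that number. Total counts per library were 31877265 to 43962783.

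The 52 gene lists (1218 symbols, of which 56 did not match the table) and the named genes were chosen with earlier results of these data known. Named genes are 18 fixed genes of the pathways and cartilage, the 12 largest called rises and 12 falls averaging 5 CPM or more, whose groups do not overlap, up to 5 called members per list with the smallest p, the 2 most abundant markers of each other cell type, genes called here with RPT within 0.1 log2 of RP, those with 1 sign in both contrasts, and the 5 most abundant. Some genes that meet this rule are not reported here. Other list members named were chosen after their values were seen. Promoters (RefSeq, GRCr8) were matched by symbol and chosen for printing after the motif search.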

Additional observations from a re-analysis of the deposited data

How the results depend on the processing

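Under 16 alternatives no gene called in both fits had the opposite direction, and 62 of 371 named genes changed their call under at least 1 of them. Calls (higher and lower; 1647 and 1705 as reported) were 1690 and 1653 with DESeq2 size factors, 1318 and 2280 with library totals, 1553 and 1762 without a filter, 1626 and 1676 with at least 1 CPM in 3 libraries, 1994 and 2003 with the RP and RPTi libraries only, and 1836 and 1786 with DESeq2. Leaving out 1 library gave 1127 to 1942 higher and 1147 to 2050 lower, lowest without RPTi1. At 1 log2 or more, 205 to 257 were higher and 248 to 284 lower. Whether replicate numbers pair the samples cannot be decided from 3 libraries a group. Deviations of same-numbered RP and RPTi libraries correlated at -0.084, 0.049 and 0.101, and those of unlike-numbered ones at -0.114 to 0.071. A fit with the replicate number as a block called 2333 and 2356. List counts that moved by over 1.5 times without a single library are given beside them in the report. Counts of 3 libraries a group limit what can be seen for genes under about 1 CPM, such as Il6.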

Other observations

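Further gene groups moved only in part. Of 13 Kruppel-like factors 6 rose and 1 fell (Klf7, -0.35, not without RP1 or RPTi3); Klf2 went from 13.4, 14.3 and 14.7 CPM in RP to 39.3, 30.8 and 28.00 in RPTi, with RPT at 11.03, 11.7 and 10.8, and Klf10 and Klf4 rose by 0.56 and 0.44. Of 16 clock genes 3 rose, or 1 without RP1, RP3, RPTi2 or RPTi3, and 4 fell. Nfil3, a repressor of clock output, rose from 7.89, 7.48 and 7.92 CPM to 19.6, 22.2 and 20.97 (RPT, 13.8, 14.6 and 15.2), and Dbp and Tef, activators at the same sites, fell by 0.47 and 0.40, while Arntl (0.16) and Per2 (-0.05) did not pass. Of 20 FOXO and PI3K genes 5 rose and 3 fell, with Gadd45b and Foxo1 up by 0.78 and 0.54 and Pik3r1 down by 0.68. There 2 rose without RP3 or RPTi1 and 3 without RP1 or RPTi2, and 5 fell without RPT3. Of 18 p53-responsive genes 6 rose, Gdf15 by 1.23 ± 0.14, and 5 fell, or 2 without RP1, RP3 or RPTi1 and 3 without RPTi2.

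Of 46 semaphorin, ephrin and adhesion receptor genes 9 rose and 9 fell. Itga3, an integrin subunit that binds laminin, fell from 196, 208 and 172 CPM to 50.4, 68.7 and 51.6 and was 372, 374 and 321 in RPT. Plxnb1, a semaphorin receptor, rose from 49.9, 49.8 and 50.8 CPM to 133, 123 and 126, with RPT at 25.9, 27.4 and 22.1, and Itga10, a collagen II receptor of chondrocytes, rose by 0.67 ± 0.08. Ribosome biogenesis genes stayed near RP (5 of 39 higher, all by less than 0.5, and 3 lower; 3 rose without RP1, RP3 or RPTi2 and 2 without RPTi1, and 0 fell without RP3, RPTi1 or RPTi2, 1 without RP1, 5 without RPT2 and 6 without RPT3). Among the 13 mitochondrially encoded genes 3 rose and Mt-nd6 fell by 0.41 ± 0.08; 1 rose without RP1, RP2, RPTi1 or RPTi3.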
